A study of Mus musculus with 6 samples.

Results

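The tumour necrosis factor (TNF) superfamily was examined in brain microglial isolates taken at the peak of experimental autoimmune encephalomyelitis, a mouse model of multiple sclerosis. Members were the genes whose platform symbol begins with Tnfsf (ligands) or Tnfrsf (receptors) followed by a number, which gave 29 of 19505 named genes, 9 of them ligands and 20 receptors. Each member had a single probe set, and 0 shared identical values with another. Tnfsf12 and Tnfsf13 were not analysed here. Superfamily genes with other symbols, among them Tnf itself, were kept as a separate list.

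There were 3 control arrays and 3 conditional knock-out (CKO) arrays. All mice were female C57BL/6 animals immunised with recombinant myelin oligodendrocyte glycoprotein in IFA, and all received pertussis toxin. The labels describe the CKO as a knock-out in B cells, and the series title speaks of GM-CSF-expressing B cells, so microglia were not the targeted cell. The sources used here do not give the deleted gene, the Cre driver, the age of the mice or whether animals were pooled. Nothing in the labels says that replicates came from separate animals, so the p-values reflect the spread among these 6 samples and that spread may be technical.

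TNF superfamily ligands are mostly trimeric proteins anchored in the membrane of the sending cell, and some are cleaved into soluble factors. Their receptors carry cysteine-rich repeats outside the cell. Inside, they either recruit TRAF adaptors, which lead to NF-kB activation and cell survival, or bear a death domain that can start apoptosis. In the inflamed brain the family links T cells, B cells, myeloid cells and glia through costimulation, B cell survival and the control of cell death.

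The arrays differed in ways that touch the members. The interquartile range of log2 levels was 3.08 and 3.11 on CKO replicates 2 and 3, and 3.66 to 4.0 on the other arrays. Control replicate 2 and CKO replicate 1 had the highest astrocyte marker levels (6 measured genes, mean deviations of 1.21 and 2.60 from the 6-array mean), against -1.22 to -0.78 on the other arrays. The microglial markers P2ry12 and Cx3cr1 had log2 levels of 18.76 to 19.72 and 16.53 to 17.36. Over 6 measured microglial genes the mean log2 level was 15.56 to 16.09 on control and 15.90 to 16.75 on CKO arrays. Of these genes 4 were higher and 2 lower in the CKO group, with a median log2 difference of 0.39. Fcrls and P2ry12 had log2 differences of 1.21 and 0.55, and Tmem119 and Sall1 had -0.44 and -0.16. T cell markers were present beside them, with a mean log2 level over 6 genes of 8.07 to 10.16 on control arrays and 6.24 to 6.78 on CKO arrays.

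Levels of the T cell costimulatory receptors Tnfrsf4 and Tnfrsf18, of the death ligand gene Tnfsf10 and of the B cell survival factor gene Tnfsf13b were lower on every CKO array than on any control array. The log2 differences were -2.87, -2.11, -1.72 and -0.88. No member passed the adjusted threshold: limma's two-sided test with Benjamini-Hochberg adjustment over all 22206 probe sets called 0 of 29 at an adjusted p under 0.05, against 0.00901% of all probe sets. At an adjusted p under 0.1 it called 0 members as well, against 0.198% of all probe sets. At an unadjusted p under 0.05, 4 members were lower (6.35% of all probe sets were) and 0 were higher (3.55% of all probe sets were). Groups did not overlap, with CKO lower, for 5 members (8.48% of all probe sets). They did not overlap with CKO higher for 0 members (5.94% of all probe sets).

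**Figure D1:**
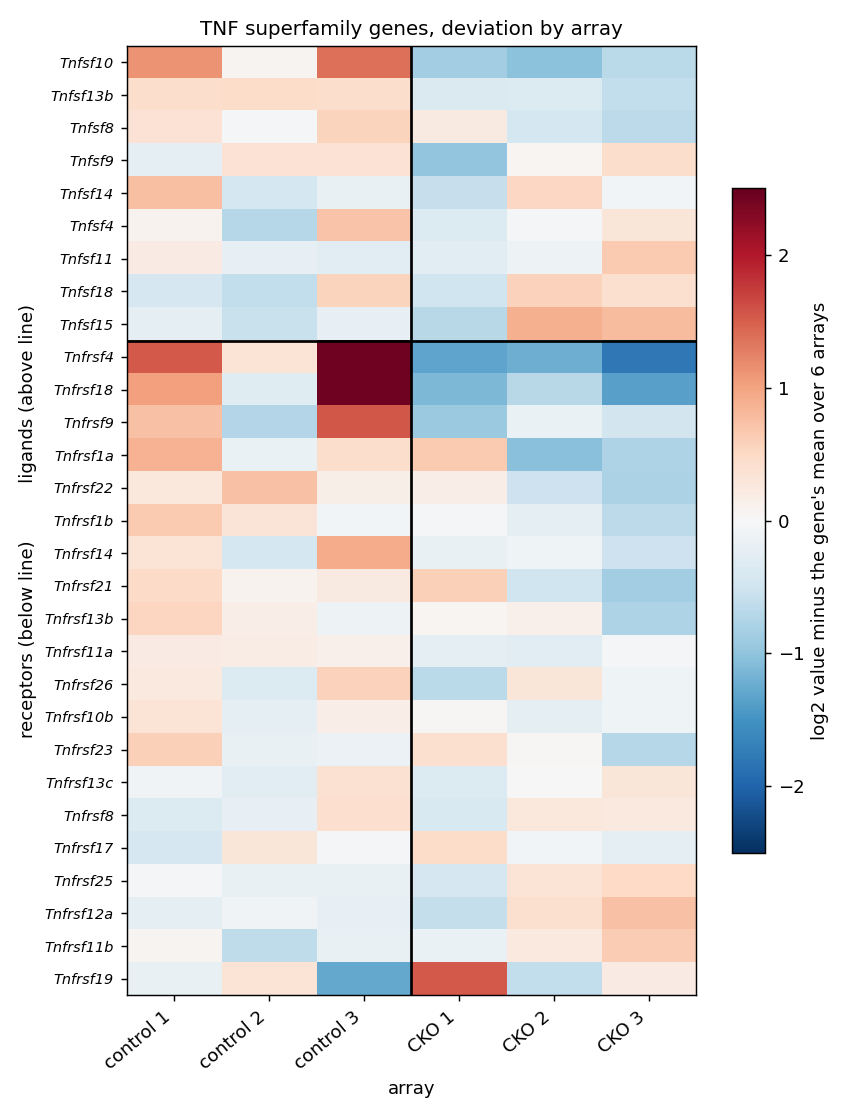
Colour map of the log2 level of each of the 29 members on each of the 6 arrays, as the deviation from that gene's 6-array mean, with ligands above the line and receptors below it. Tnfrsf4 and Tnfrsf18 show the strongest colours, red on control replicates 1 and 3 and blue on the CKO arrays, and Tnfrsf19 stands out in red on CKO replicate 1.

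Among receptors that costimulate T cells, Tnfrsf4 (OX40), which prolongs survival of activated T cells, had log2 levels of 9.95, 8.77 and 10.85 on control replicates 1, 2 and 3. On CKO replicates 1, 2 and 3 its log2 levels were 7.11, 7.21 and 6.64. The lowest control level, on replicate 2, lay above all CKO levels. The means were 9.86 ± 1.04 (SD, n = 3) and 6.99 ± 0.30, a log2 difference of -2.87 (SE 0.50, 95% interval -4.01 to -1.73, limma adjusted p = 0.108). This was the smallest p of the family, and the difference corresponds to a 7.31-fold lower value. The CKO levels lay below the medians of their arrays (7.18, 7.34 and 7.34). No measure of background was used, so this size is uncertain.

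Tnfrsf18 (GITR), a costimulatory receptor abundant on regulatory T cells, had log2 levels of 8.43, 7.09 and 9.83 on the control arrays. Its CKO log2 levels were 6.28, 6.70 and 6.04, also below the medians of their arrays. Control replicate 2 was again the lowest control array and still lay above the highest CKO array. The log2 difference was -2.11 (SE 0.61, 95% interval -3.51 to -0.71, limma adjusted p = 0.29). The controls spread over a wide range, with an SD of 1.37 against 0.33 for CKO. Without control replicate 3 the log2 difference was -1.42, and without control replicate 2 it was -2.79.

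Tnfrsf4 and Tnfrsf18 are direct neighbours among protein-coding genes, with 0 genes between them. Their RefSeq promoters, from 250 bases before to 50 bases after the transcript start (GRCm38.p6, plus strand, 5′ to 3′), are shown because the genes differed together. The stretches are chr4:156013445-156013744 for Tnfrsf4 and chr4:156026072-156026371 for Tnfrsf18.
Tnfrsf4: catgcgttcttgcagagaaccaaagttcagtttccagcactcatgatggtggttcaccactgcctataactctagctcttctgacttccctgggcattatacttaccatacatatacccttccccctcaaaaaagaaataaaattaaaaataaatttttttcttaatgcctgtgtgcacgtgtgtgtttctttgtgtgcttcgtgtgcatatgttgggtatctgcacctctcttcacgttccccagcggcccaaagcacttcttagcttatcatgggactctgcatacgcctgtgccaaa
Tnfrsf18: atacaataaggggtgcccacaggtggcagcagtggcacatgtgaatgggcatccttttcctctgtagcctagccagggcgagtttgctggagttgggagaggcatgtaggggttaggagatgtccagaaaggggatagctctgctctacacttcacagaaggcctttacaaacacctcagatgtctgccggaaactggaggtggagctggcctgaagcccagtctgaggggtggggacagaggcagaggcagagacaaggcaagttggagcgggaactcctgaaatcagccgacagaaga
Neither window holds, on either strand, the interferon-stimulated response element core (GAAA, any 2 bases, GAAA) or an NF-kB type site (GGG, any 2 bases, TTTCC), which says only that these letters are not in these windows. Their GC content was 43.7% and 55.3%.

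The other costimulatory receptors differed less. Tnfrsf9 (4-1BB), induced on activated T and NK cells, had log2 levels of 7.61, 6.14 and 8.43 on the control arrays and 5.95, 6.71 and 6.42 on the CKO arrays. The groups overlapped through control replicate 2, and the log2 difference was -1.03 (95% interval -2.28 to 0.21, limma adjusted p = 0.556). It was -1.66 without control replicate 2 (adjusted p = 0.212) and -0.51 without control replicate 3. Tnfrsf14 (HVEM), which binds LIGHT and the inhibitory receptor BTLA, had log2 levels of 10.31, 9.52 and 10.89 against 9.77, 9.85 and 9.45. Its log2 difference was -0.55 (95% interval -1.41 to 0.31). Tnfrsf25 (DR3), the receptor of TL1A, and Tnfrsf8 (CD30), a marker of activated lymphocytes, had log2 differences of 0.27 and 0.09. Of the 6 costimulatory receptors 4 were lower and 2 higher, with a median log2 difference of -0.79 beside 0.05 over all named genes.

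T cell markers were lower in the CKO group beside Tnfrsf4 and Tnfrsf18, whereas Tnfrsf25 and Tnfrsf8 were not. All 6 measured genes of that list had lower CKO levels (median log2 difference -2.76), and the list deviated on average by 2.06, 0.08 and 2.17 on the control arrays, then by -1.75, -1.21 and -1.35 on the CKO arrays. Cd3e, part of the CD3 signalling complex, had log2 levels of 12.55, 9.59 and 12.45 and then 6.48, 8.21 and 7.40. On the CKO arrays the mean log2 level of the 6 genes was 6.24 to 6.78, below the array medians of 7.18 to 7.34. No measure of background was used, so how far these levels reflect T cell RNA is uncertain. Control replicate 2 was the lowest control array for Tnfrsf4, Tnfrsf18, Tnfrsf9, Tnfrsf14 and the T cell list. Among the CKO arrays the T cell list and Tnfrsf9 were lowest on replicate 1, and Tnfrsf4, Tnfrsf18 and Tnfrsf14 on replicate 3. In bulk samples, fewer cells of a type and less RNA per cell cannot be told apart, and the part of T cell content in these differences was not tested.

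**Figure D2:**
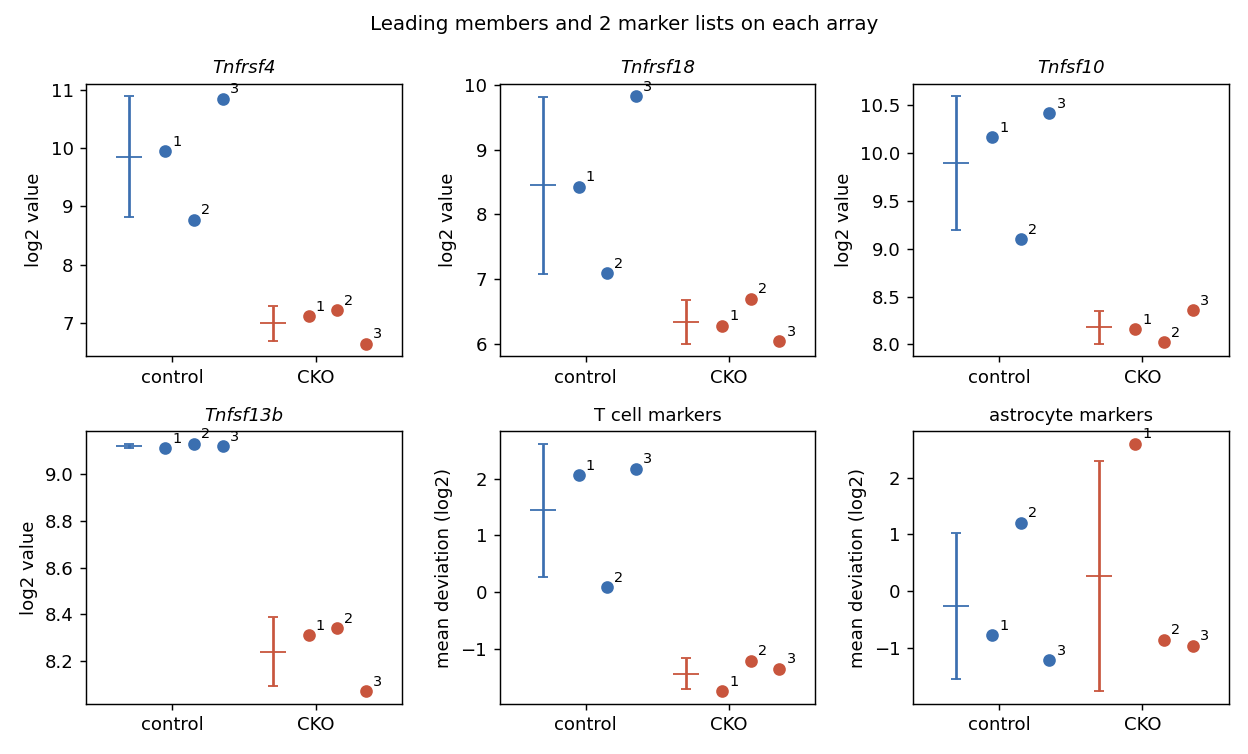
Log2 level of Tnfrsf4, Tnfrsf18, Tnfsf10 and Tnfsf13b on each array (points, numbered by replicate, with the group mean and SD at the left), beside the mean deviation of the 6 T cell and the 6 astrocyte markers. The 4 genes and the T cell list have no CKO array above a control array, whereas the astrocyte list is highest on CKO replicate 1 and control replicate 2.

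The ligands of Tnfrsf4 and Tnfrsf18 had differences near 0. Tnfsf4 (OX40L), made by antigen-presenting cells, had log2 levels of 6.26, 5.47 and 6.89 on the control arrays and 5.84, 6.12 and 6.48 on the CKO arrays. The groups overlapped fully, with a log2 difference of -0.06 (95% interval -0.96 to 0.84). Tnfsf18 (GITRL) had log2 levels of 5.50, 5.29 and 6.48 and then 5.41, 6.49 and 6.32, with a log2 difference of 0.32 (95% interval -0.65 to 1.28). For the pair of Tnfsf4 and Tnfrsf4 the ligand's change exceeded the receptor's by 2.81 on the log2 scale. For Tnfsf18 and Tnfrsf18 it did so by 2.43. The ligand-minus-receptor values did not overlap between groups in either pair (two-sided exact permutation p = 0.1, adjusted p = 0.24 over 12 pairs). A p of 0.1 is the smallest that 3 against 3 arrays allow. By mean level over all probe sets, Tnfsf4 and Tnfsf18 lay at percentiles 31.8 and 26.6. Tnfrsf4 and Tnfrsf18 lay at 65.5 and 52.6. The part of brightness in the pair values was not tested.

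The remaining ligands for T cell receptors were Tnfsf8, Tnfsf9, Tnfsf14 and Tnfsf15. Tnfsf8 (CD30L) had log2 levels of 6.69, 6.30 and 6.88 and then 6.55, 5.89 and 5.67, with a log2 difference of -0.59 (95% interval -1.33 to 0.16). Tnfsf9 (4-1BBL) and Tnfsf14 (LIGHT), ligand of HVEM and the lymphotoxin beta receptor, had log2 differences of -0.33 and -0.08. Over the 6 costimulatory ligands 4 were lower and 2 higher, and the median log2 difference was -0.07.

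Tnfsf15 (TL1A), the ligand of DR3, had log2 levels of 7.24, 6.92 and 7.27 on the control arrays and 6.79, 8.37 and 8.26 on the CKO arrays. CKO replicates 2 and 3 lay above all controls, and CKO replicate 1 lay below them. The log2 difference was 0.66 (95% interval -0.33 to 1.66, limma adjusted p = 0.619). It became 1.17 without CKO replicate 1 (adjusted p = 0.033), where 9.95% of all probe sets were called, and -0.35 without CKO replicates 2 and 3 (adjusted p = 0.787). The arrays that raise it are those of narrow range, and with only these in the CKO group, range and group cannot be told apart.

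Tnfsf10 (TRAIL), which induces apoptosis through death receptors and is inducible by interferon, had log2 levels of 10.17, 9.10 and 10.42 on the control arrays. The CKO log2 levels were 8.16, 8.02 and 8.36. Every CKO array lay below control replicate 2, the lowest control. The means were 9.90 ± 0.70 (SD, n = 3) and 8.18 ± 0.17, a log2 difference of -1.72 (SE 0.38, 95% interval -2.58 to -0.85, limma adjusted p = 0.166). NK cell and monocyte markers were lower beside it, 6 of 6 measured genes in each list, with median log2 differences of -1.51 and -1.75. The mean log2 level of the NK list was 7.68 to 8.98 on control and 6.71 to 7.60 on CKO arrays, and that of the monocyte list 14.04 to 14.79 and 12.37 to 13.20. Neutrophil markers were lower in 3 of 4 measured genes, with a median log2 difference of -0.28. The part of these 3 cell types in the difference was not tested.

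Leaving out control replicate 2 gave Tnfrsf4 and Tnfsf10 adjusted p values of 0.0225 and 0.0462 by limma, so 2 members passed there, against 0.563% of all probe sets. That array was the control nearest the CKO arrays for both genes, so its removal widens their differences. Leaving out control replicate 1 or 3, or CKO replicate 2 or 3, gave larger limma adjusted p values. They were 0.253 to 0.511 for Tnfrsf4 and 0.447 to 0.659 for Tnfsf10. Without CKO replicate 1, 3 members passed, against 9.95% of all probe sets: Tnfrsf4 (adjusted p = 0.0186), Tnfsf10 (0.0363) and Tnfsf15. In that setting 9 members were lower at an unadjusted p under 0.05 (13.6% of all probe sets) and 2 were higher (15.4% of all probe sets). With array weights, which give less weight to arrays that vary more, Tnfrsf4, Tnfrsf18, Tnfsf10 and Tnfsf13b passed (4 members, against 7.63% of all probe sets). There 9 members were lower (14.2% of all probe sets) and 2 higher (15.1% of all probe sets) at an unadjusted p under 0.05. The log2 difference of Tnfrsf4 stayed between -3.41 and -2.37 when 1 array was left out at a time, and that of Tnfsf10 between -2.12 and -1.45.

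The receptors for TRAIL had differences closer to 0. Tnfrsf10b (DR5), its death receptor, had log2 levels of 4.81, 4.25 and 4.64 and then 4.50, 4.24 and 4.37, among the dimmest 20% of probe sets, where levels are uncertain. Its log2 difference was -0.20 (95% interval -0.83 to 0.43). Tnfrsf22 and Tnfrsf23 encode decoy receptors for TRAIL and adjoin Tnfrsf26 in the genome. Tnfrsf22 had log2 levels of 7.68, 8.15 and 7.58 on the control arrays and 7.60, 6.90 and 6.64 on the CKO arrays. CKO replicates 2 and 3 lay below all controls and CKO replicate 1 within them, for a log2 difference of -0.76 (95% interval -1.53 to 0.01, limma adjusted p = 0.51). Tnfrsf23 and Tnfrsf26 had log2 differences of -0.18 and -0.32. These 3 are related sequences, and the sources used here do not say how far their probes separate them. For Tnfsf10 and Tnfrsf10b the ligand's change was lower than the receptor's by 1.52 on the log2 scale (difference -1.52, exact permutation p = 0.1, adjusted p = 0.24 over 12 pairs).

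Tnfsf13b encodes BAFF, a survival factor for B cells that myeloid cells and glia secrete. Its log2 levels were 9.11, 9.13 and 9.12 on the control arrays and 8.31, 8.34 and 8.07 on the CKO arrays. The controls were nearly equal (SD 0.01), and all CKO arrays were below them. The log2 difference was -0.88 (SE 0.25, 95% interval -1.46 to -0.30, limma adjusted p = 0.283), a 1.84-fold lower value. Unlike the other 3 leading members, Tnfsf13b was not lowest among controls on replicate 2, and its log2 difference stayed between -0.93 and -0.79 when 1 array was left out. Monocyte markers were also lower in the CKO group, as given for Tnfsf10. Within the groups they varied otherwise. Their list deviated by 1.11, 0.39 and 1.13 on the control arrays, where Tnfsf13b was nearly equal. On the CKO arrays it deviated by -1.28, -0.90 and -0.45, while Tnfsf13b was lowest on replicate 3. Neutrophil markers had a median log2 difference of -0.28. The part of monocyte or neutrophil content was not tested.

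Of its 2 listed promoters, the one at chr8:10006383-10006682 (GRCm38.p6, plus strand) holds 1 match to the interferon-stimulated response element core, shown because Tnfsf13b is the leading member with such a match. The capitals mark the match, which begins at position -16 from the transcript start.
Tnfsf13b: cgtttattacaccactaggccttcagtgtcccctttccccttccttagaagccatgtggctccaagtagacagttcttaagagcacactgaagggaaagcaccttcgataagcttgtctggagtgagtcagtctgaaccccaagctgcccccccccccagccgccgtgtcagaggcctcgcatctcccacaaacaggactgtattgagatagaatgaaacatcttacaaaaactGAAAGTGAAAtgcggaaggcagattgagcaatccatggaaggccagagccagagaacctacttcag
Of 27 RefSeq promoters listed for 23 members, 4 hold the interferon-stimulated response element core on either strand (14.8%), against 3.44% of all 32851 promoters. Their genes are Tnfsf13b, Tnfrsf14, Tnfrsf17 and Tnfrsf1b, with log2 differences of -0.88, -0.55, 0.10 and -0.61. The NF-kB type site is held by 2 of the 27 (7.41%, against 1.63% of all promoters), those of Tnfrsf9 and Tnfrsf25, with log2 differences of -1.03 and 0.27. These matches are descriptions of sequence and not evidence of binding.

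The receptors for BAFF stayed closer to the control level. Tnfrsf13c (BAFF receptor), the main survival receptor of mature B cells, had log2 levels of 6.47, 6.31 and 6.94 and then 6.23, 6.58 and 6.87, a log2 difference of -0.01 (95% interval -0.71 to 0.68). Tnfrsf17 (BCMA), typical of plasma cells, had log2 levels of 7.91, 8.63 and 8.27 and then 8.79, 8.25 and 8.08, a log2 difference of 0.10 (95% interval -0.63 to 0.83). Tnfrsf13b (TACI), found on B cells and also on myeloid cells, had log2 levels of 10.98, 10.60 and 10.30 and then 10.49, 10.56 and 9.67, a log2 difference of -0.39 (95% interval -1.17 to 0.40).

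B and plasma cell markers were lower beside these receptors, 6 of 6 measured genes, with a median log2 difference of -0.94 and a mean log2 level of 7.30 to 8.28 on control and 5.57 to 6.68 on CKO arrays. Jchain, the joining chain of secreted IgM and IgA, had log2 levels of 10.76, 11.02 and 13.09 on the control arrays and 5.14, 8.80 and 5.98 on the CKO arrays. Their part in the receptor values was not tested. The ligand's change was below the receptor's by 0.87 for Tnfrsf13c and by 0.98 for Tnfrsf17 (differences -0.87 and -0.98), with no overlap between groups. For Tnfrsf13b it was below by 0.49 (difference -0.49), and the groups overlapped. The exact permutation p was 0.1, 0.1 and 0.2, with adjusted p = 0.24, 0.24 and 0.3.

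**Figure D3:**
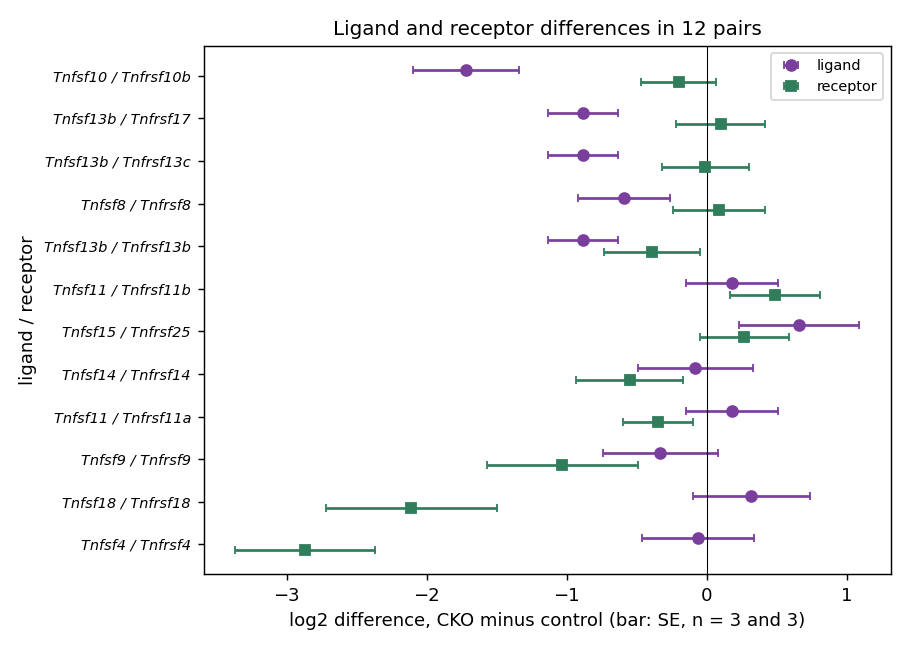
Log2 difference, CKO minus control, of the ligand (circles) and the receptor (squares) in each of 12 ligand-receptor pairs, with the limma SE as bars, ordered by the ligand's change minus the receptor's. The ligand lies far left of its receptor for Tnfsf10 and Tnfrsf10b, and the receptor far left of its ligand for Tnfsf4 with Tnfrsf4 and Tnfsf18 with Tnfrsf18.

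Both TNF receptors are expressed by microglia. Monocyte and neutrophil markers were present in these isolates too. The mean log2 level of the monocyte list was 14.04 to 14.79 on control and 12.37 to 13.20 on CKO arrays. That of the neutrophil list (4 measured genes, median log2 difference -0.28) was 15.88 to 16.67 and 15.85 to 16.34. The part of these cells in the receptor values was not tested. Tnfrsf1a, the death domain receptor for TNF, had log2 levels of 13.60, 12.56 and 13.17 on the control arrays and 13.37, 11.68 and 11.95 on the CKO arrays. Its CKO replicate 1 lay among the controls while CKO replicates 2 and 3 lay below all of them. The log2 difference was -0.78 (95% interval -1.88 to 0.33, limma adjusted p = 0.605), -1.30 without CKO replicate 1, and 0.26 without CKO replicates 2 and 3. Tnfrsf1b, the TNF receptor that lacks a death domain, had log2 levels of 13.10, 12.76 and 12.37 and then 12.41, 12.22 and 11.78. Its log2 difference was -0.61 (95% interval -1.32 to 0.11), and it was -0.37 after quantile normalization.

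Tnfrsf11a (RANK), the receptor through which RANKL drives osteoclast formation, had log2 levels of 10.43, 10.41 and 10.36 on the control arrays and 10.01, 9.95 and 10.19 on the CKO arrays. These groups did not overlap, but the log2 difference was only -0.35 (SE 0.25, 95% interval -0.92 to 0.22, limma adjusted p = 0.641). It was -0.15 after quantile normalization and -0.11 after cyclic loess. Its ligand gene Tnfsf11 (RANKL), among the dimmest 20% of probe sets, had log2 levels of 5.58, 5.18 and 5.12 and then 5.12, 5.26 and 6.04. Tnfsf11 and the soluble decoy Tnfrsf11b (osteoprotegerin) had log2 differences of 0.18 and 0.49, with 95% intervals of -0.57 to 0.93 and -0.25 to 1.23.

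The receptors best known from glia and injured tissue did not differ in one direction. Tnfrsf19 (TROY), a receptor of the developing nervous system, had log2 levels of 6.72, 7.24 and 5.63 on the control arrays and 8.44, 6.29 and 7.10 on the CKO arrays. Its highest level was on CKO replicate 1, the array with the highest astrocyte markers, and its highest control level was on replicate 2, the control with the highest astrocyte markers. The log2 difference of 0.75 (95% interval -0.61 to 2.11) was 0.16 without CKO replicate 1 and 1.91 without CKO replicates 2 and 3, and the part of astrocyte RNA in it was not tested.

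Tnfrsf21 (DR6), a death receptor of neurons and oligodendrocyte lineage cells, had log2 levels of 9.49, 9.10 and 9.24 and then 9.61, 8.52 and 8.15, a log2 difference of -0.52 (95% interval -1.42 to 0.39). Tnfrsf12a (Fn14), the receptor for TWEAK that rises in tissue repair, had log2 levels of 8.06, 8.21 and 8.11 and then 7.72, 8.70 and 9.04, a log2 difference of 0.36 (95% interval -0.48 to 1.20). In both, CKO replicate 1 lay on the other side of the controls from CKO replicates 2 and 3. The log2 difference of Tnfrsf21 was -0.94 without CKO replicate 1 and 0.33 without CKO replicates 2 and 3. That of Tnfrsf12a was 0.74 and -0.41 in these settings. For 9 members CKO replicates 2 and 3 lay together outside the control range while CKO replicate 1 did not go with them, 5 of them below (17.2%, against 12.9% of all probe sets) and 4 above (13.8%, against 19.1%).

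**Figure D4:**
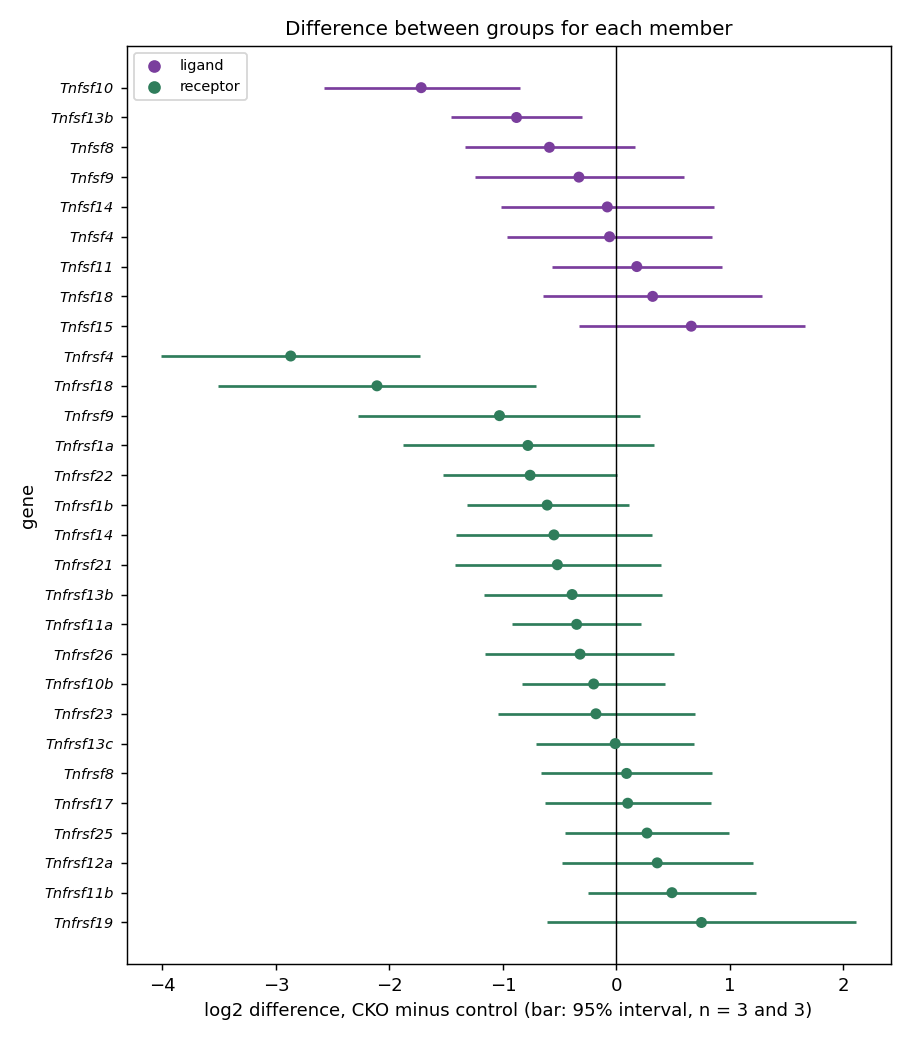
Log2 difference, CKO minus control, of each member (points) with its limma 95% interval (bars), ligands first and receptors below, each ordered by the difference. The intervals of Tnfsf10, Tnfsf13b, Tnfrsf4 and Tnfrsf18 lie below 0, and those of the other 25 members reach across it.

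Ligands and receptors can be set side by side as groups. Of the 9 ligands 6 were lower and 3 higher, with a median log2 difference of -0.08 and a range of -1.72 to 0.66. Of the 20 receptors 14 were lower and 6 higher, with a median log2 difference of -0.34 and a range of -2.87 to 0.75. Over all probe sets 44.5% had a log2 difference below 0. At an unadjusted p under 0.05, 2 of 9 ligands and 2 of 20 receptors were lower, beside 6.35% of all probe sets. The order of the medians depended on the scaling: it was -0.25 for ligands and -0.23 for receptors after quantile normalization, and -0.26 and -0.23 after cyclic loess.

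The groups also differed in brightness. Of the ligands 5 of 9 and of the receptors 6 of 20 were among the dimmest 50% of probe sets. Over all probe sets the dimmest 50% had a median log2 difference of 0.19 with 30.1% lower, and the brightest 50% had -0.11 with 58.9% lower. Among the members, 6 of 11 dim ones were lower (median log2 difference -0.01) and 14 of 18 bright ones (median log2 difference -0.45). Brightness was the mean over all 6 arrays, so a member can count as bright through its control levels. Tnfrsf18 was at percentile 52.6, with CKO levels of 6.28, 6.70 and 6.04 below the CKO array medians of 7.18 to 7.34. The split is thus not independent of the difference. The part of brightness in the ligand and receptor medians was not tested.

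By array, the ligands had mean deviations of 0.23, -0.19 and 0.37 on the control arrays, then -0.49, 0.01 and 0.06 on the CKO arrays. The ligand groups overlapped, with control replicate 2 below CKO replicates 2 and 3. Receptors had mean deviations of 0.33, -0.06 and 0.38, then -0.12, -0.20 and -0.33, with control replicate 2 just above the CKO arrays. Control replicate 2 was the lowest control array for 18 of 29 members (62.1%), against 37.3% of all probe sets.

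Neighbouring members did not always share a direction. Besides Tnfrsf4 and Tnfrsf18, the ligand neighbours Tnfsf15 and Tnfsf8 had log2 differences of 0.66 and -0.59. The neighbours Tnfrsf1b and Tnfrsf8 had log2 differences of -0.61 and 0.09, and Tnfsf4 and Tnfsf18 had -0.06 and 0.32. The neighbours Tnfrsf26, Tnfrsf22 and Tnfrsf23 shared a direction, with log2 differences of -0.32, -0.76 and -0.18. So did Tnfsf9 and Tnfsf14, with 1 gene between them, at -0.33 and -0.08. The signs of Tnfrsf8, Tnfsf4 and others among these genes changed with the setting.

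Superfamily genes that carry other symbols were read from the same fit. Of 7 such ligands 4 were lower at an unadjusted p under 0.05 (6.35% of all probe sets), 0 higher (3.55% of all probe sets), and 0 passed over all genes, with a median log2 difference of -1.09. Tnf, the founding cytokine of the family, had log2 levels of 8.55, 7.71 and 9.33 on the control arrays and 6.57, 5.61 and 5.02 on the CKO arrays (limma adjusted p = 0.115). Cd40lg, the CD40 ligand of helper T cells, had log2 levels of 8.15, 7.12 and 7.61 and then 5.26, 5.92 and 5.79 (limma adjusted p = 0.108). Ltb, which forms the lymphotoxin complex that shapes lymphoid tissue, and Fasl, the killer cell death ligand, had log2 differences of -1.63 and -1.09. Beside these ligands, markers of T cells, of NK cells and of monocytes were lower (median log2 differences of -2.76, -1.51 and -1.75), and their part was not tested.

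Of 7 other-name receptors 3 were lower at an unadjusted p under 0.05 (6.35% of all probe sets), 0 higher (3.55% of all probe sets), and 0 passed over all genes, with a median log2 difference of -0.42. Cd40, which licenses antigen-presenting cells, had log2 levels of 8.0, 7.48 and 8.03 and then 6.35, 7.51 and 6.92, a log2 difference of -0.91 (95% interval -1.73 to -0.09). Its groups overlapped, with CKO replicate 2 just above control replicate 2. The death receptor Fas and the receptor Relt had log2 differences of -0.75 and -0.63, and Ltbr, the lymphotoxin beta receptor, had -0.42. Markers of B and plasma cells and of dendritic cells were lower beside these receptors, with median log2 differences of -0.94 and -0.66. This held for 6 of 6 and 5 of 5 measured genes, and the part of these cells was not tested.

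Signalling genes downstream of the receptors were lower in 14 of 15 measured cases, where 44.5% of all probe sets and 58.9% of the brightest 50% were lower. At an unadjusted p under 0.05, 6 were lower (6.35% of all probe sets) and 0 higher, and 0 passed over all genes. The median log2 difference was -0.56, beside medians of -2.76, -1.51 and -1.75 for the markers of T cells, NK cells and monocytes, whose part was not tested. Traf1, an NF-kB-induced adaptor, had log2 levels of 8.24, 7.46 and 8.39 on the control arrays and 5.47, 6.05 and 6.25 on the CKO arrays. Its log2 difference of -2.11 (SE 0.35, limma adjusted p = 0.104) had the smallest p of these lists. Birc3, an inhibitor of apoptosis recruited by TRAFs, and Tnfaip3 (A20), a brake on NF-kB, had log2 differences of -1.64 and -1.97. Traf2, the adaptor shared by most TRAF-binding receptors, had -0.85.

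**Figure D5:**
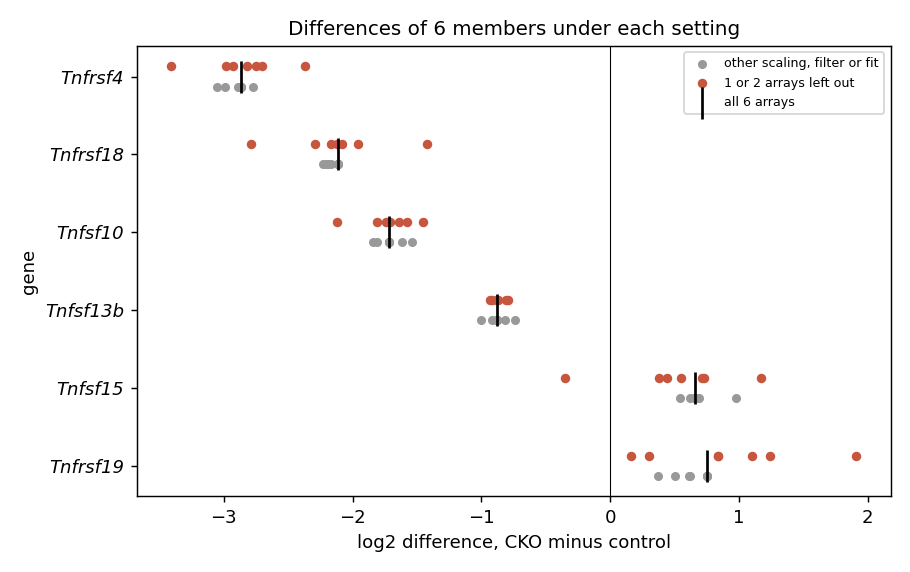
Log2 difference, CKO minus control, of 6 members with all 6 arrays (black bars), under other scalings, filters and fits (grey) and with 1 or 2 arrays left out (red). Tnfrsf4, Tnfrsf18, Tnfsf10 and Tnfsf13b stay below 0 in all of them, whereas Tnfsf15 runs from -0.35 to 1.17 and Tnfrsf19 from 0.16 to 1.91.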

How the data were processed

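Total RNA of brain microglial isolates was labelled with an Affymetrix whole-transcript kit, 1 array per sample, per the labels' protocols. The authors deposited 1 log2 value per probe set and array, made with RMA per the submitters' processing notes; the sources used here give no version, settings or annotation build. The values ran from 2.93 to 19.93 and were taken as log2. RMA usually leaves arrays of equal distribution, which these were not, so quantile normalization, cyclic loess and median centring were tried as alternatives.

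Of 22206 probe sets, 19572 name 1 gene, 0 several, and 2634 are unnamed here; 19572 matched a RefSeq gene table (GRCm38.p6) by Entrez number, with 0 symbols changed. The probe set with the highest mean stood for a gene. Groups came from the sample titles. The main model was a limma (version 3.58.1, R 4.3.3) fit of CKO minus control without covariates over all probe sets, moderated with eBayes. Tests were two-sided, adjusted by Benjamini-Hochberg at 0.05; the fit was tested on simulated data. Of the members, 27 lay above the dimmest 20% of probe sets and 18 above the dimmest 50%. No measure of background was used. Changes in ligand and receptor were compared in 12 pairs by exact permutation over arrays. Values on every array were to be given for members at an unadjusted p under 0.05 or with groups that did not overlap and for their partners; those of other members were added after their values were seen, as was the choice of Tnfsf15 and Tnfrsf19. Of the other-symbol and adaptor lists the 4 genes with the smallest p each were named. Promoters came from RefSeq, and motifs were searched on both strands. Protein sequences were not used here. The members, lists, tests and alternatives were chosen with earlier results of these data known.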

Additional observations from a re-analysis of the deposited data

How the results depend on the processing

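The lower log2 values of Tnfrsf4, Tnfrsf18, Tnfsf10 and Tnfsf13b kept their direction under all 16 alternatives run on each, and 0 members passed an adjusted p of 0.05 by limma except with array weights, without control replicate 2 and without CKO replicate 1. At an adjusted p of 0.1, 0 passed in the unaltered fit. Tnfrsf4 was under it with median centring (0.0787), the trended robust fit (0.0855) and probe sets averaged per gene (0.0923), and it and further members were with array weights, without control replicate 2 and without CKO replicate 1. With array weights 4 members passed (7.63% of all probe sets), namely these 4 at adjusted p = 0.0124, 0.0413, 0.0232 and 0.0438. There 9 were lower (14.2% of all probe sets) and 2 higher (15.1% of all probe sets) at an unadjusted p under 0.05. Leaving out 1 array at a time gave 0 to 3 members passing, against 0 to 9.95% of all probe sets. At an unadjusted p under 0.05, 4 to 9 members were lower, against 3.84% to 13.6% of all probe sets. At that p 0 to 2 were higher, against 1.71% to 15.4% of all probe sets. The median log2 differences ran from -0.36 to 0.09 for ligands and from -0.38 to -0.20 for receptors. Without CKO replicates 2 and 3, where 1 CKO array remains and is assumed to vary like the controls, Tnfrsf19 had a log2 difference of 1.91. The ligand median was -0.48 without the dimmest 50% of probe sets, which leaves fewer ligands.

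Several values changed sign. Without CKO replicates 2 and 3, Tnfrsf21 was at 0.33, Tnfrsf12a at -0.41, Tnfrsf1a at 0.26 and Tnfsf15 at -0.35. In that setting Tnfrsf23 was at 0.32, Tnfrsf25 at -0.29 and Tnfrsf8 at -0.34. Tnfsf9 was at 0.12 with array weights and 0.08 without CKO replicate 1. Tnfsf14 was at 0.27 without control replicate 1 and 0.19 without CKO replicate 1. Tnfsf11 was at 0 after quantile normalization, -0.01 after cyclic loess, -0.17 without CKO replicates 2 and 3, and -0.10 to 0.36 leaving out 1 array. Tnfrsf17 was at -0.02 after median centring and -0.10 to 0.28 leaving out 1 array. With array weights Tnfrsf13c and Tnfsf4 were at 0.14 and 0.02, and they ran from -0.17 to 0.17 and from -0.43 to 0.28 leaving out 1 array. Tnfsf18 was at -0.35 without CKO replicates 2 and 3. The cause was not tested. Over all probe sets, the deviations of same-numbered samples of the groups had correlations of -0.01, -0.23 and 0.25. With 3 arrays per group that also differ in astrocyte markers and range, this cannot show whether such samples were prepared together. With the replicate block 0 members passed, and calls over all probe sets went from 2 to 0. In that fit 4 members were lower at an unadjusted p under 0.05, against 6.42% of all probe sets. With 3 arrays per group and no background measure, precision is limited by the number of arrays and, for dim members such as Tnfrsf10b and Tnfsf11, by signal.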
